A study of Mus musculus with 4 samples.

Results

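The regions described here are m6A peaks of the vehicle library that had no counterpart in the entacapone library, called vehicle-only peaks. They were chosen by the overlap of the 2 deposited peak lists: a vehicle peak entered when it shared no base with any entacapone peak and its midpoint lay in the span of a protein-coding gene of the mm10 mouse genome. The rule selected 4219 peaks, which is 20.5% of the 20603 vehicle peaks in protein-coding genes. The 2 lists together hold 54716 peaks. The remaining 16384 vehicle peaks in such genes overlapped an entacapone peak and are called shared, and another 639 vehicle peaks without overlap lay outside protein-coding genes and were not used. Width and fold come from the same peak calls as the overlap, so their values below are descriptions and carry no test.

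The tissue was white fat, from the inguinal depot per the design text, of male mice of the C57BL/6 strain at 23 weeks of age. All animals had obesity induced by a high-fat diet and received either vehicle or entacapone. Each treatment gave 1 input library and 1 m6A immunoprecipitate (IP) library, 4 libraries in all, with no replicate. The labels give neither the dose, nor the length of treatment, nor how many animals stand behind each library. The vehicle input held 24548212 counts and the entacapone input 33164576 counts, 1.35 times as many. The vehicle list held 22860 peaks and the entacapone list 31856. In protein-coding genes, 43% of the 28388 entacapone peaks had no vehicle overlap, so the longer list had the larger unmatched share. The IP depths were not used here, and depth, peak calling and treatment cannot be told apart in a pair of single libraries.

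N6-methyladenosine (m6A) is the most common internal modification of mRNA. A methyltransferase complex built around METTL3 and METTL14 writes it, the demethylases FTO and ALKBH5 remove it, and proteins with a YTH domain read it and change how the transcript is spliced, translated or degraded. It lies mostly in long exons and around stop codons, in short motifs around a central GAC. Entacapone is a catechol-O-methyltransferase inhibitor used in Parkinson's disease that is also known to inhibit FTO. In MeRIP-seq, fragmented RNA is pulled down with an m6A antibody, and a peak is a stretch where the pulled-down fragments outnumber those of the input.

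Part of the vehicle-only set lay at gene starts, where sequence was at hand from RefSeq (GRCm38.p6, windows from 250 bases before to 50 bases after an annotated start). A window of the same gene was touched by 182 vehicle-only peaks (4.31%) and by 467 shared peaks (2.85%). The 32 vehicle-only peaks that lay wholly inside such a window were searched for GGAC on the gene's strand and for its reverse complement GTCC, which is GGAC on the other strand. GGAC occurred in 10 of the 32 (31.2%), and the same stretch held it in 25.4% of all 32851 windows. GTCC occurred in 5 (15.6%), against 26.1% of all windows. Of the 61 shared peaks wholly inside a window, 27 (44.3%) held GGAC, against 28.8% of all windows, and 21 (34.4%) held GTCC, against 29.5%. These are counts of letters in small sets and carry no test. The sites are printed to show GGAC motifs near gene starts that lay in a vehicle peak and in no entacapone peak. In each printed line the GGAC begins before the annotated start, at positions from -144 to -8 relative to it. The peaks of Phf11b and Tmem176b each held another GGAC, not printed, that begins after the annotated start, at positions 18 and 2. Whether the printed bases are part of a transcript was not tested. Each line gives 30 bases on the gene's strand around a GGAC of 1 of the 10 peaks. The central GGAC is in capitals, the bases around it may reach beyond the peak, and the name gives the gene and the position.
Phf11b, chr14:59341322-59341351, minus strand: agaggcacttcaaGGACtgcaagacaacac
Fbxo27, chr7:28692881-28692910, plus strand: tgctgaaccgctaGGACtgtgccagagccc
Gpr19, chr6:134897939-134897968, minus strand: cctgtgccagccgGGACtccgcccccgccc
Fbxl19, chr7:127746697-127746726, plus strand: ctggtctttccctGGACccctgggcagttg
Atl3, chr19:7494320-7494349, plus strand: tacaattcccgatGGACccgacattccagt
Abl1, chr2:31760019-31760048, plus strand: cgccgtggccacgGGACcatgttggagatc
Ankrd13a, chr5:114775060-114775089, plus strand: cgccgcccgctccGGACtcggaggcccttg
Ppp2r5c, chr12:110447396-110447425, plus strand: gccgggggctccgGGACcgggtctggggtc
Ttc4, chr4:106678806-106678835, minus strand: aggacgcttccatGGACgcgttcctggaaa
Tmem176b, chr6:48840988-48841017, minus strand: cacccatcgcagaGGACagcaggtgagaca

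The authors' fold, the number attached to each peak and read here as the enrichment of IP over input, ran from 1.99 at Tmem176b to 6.55 at Phf11b in these 10 peaks. Fbxo27, which encodes a substrate receptor of a ubiquitin ligase, had this peak as its only vehicle peak (62 bp wide, fold 6.26) and no entacapone peak. Gpr19, an orphan receptor gene, had a second vehicle peak that was shared, and the nearest entacapone peak lay 505 bp from the unmatched one. Fbxl19 encodes an F-box protein that binds CpG islands. It had 5 vehicle peaks, of which 2 were vehicle-only, and 7 entacapone peaks. The 10 genes thus ranged from those whose whole peak set was unmatched to those where 1 peak of several was.

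The vehicle-only peaks were narrow. Their median width was 80 bp (quartiles 61 and 106, range 49 to 705), against 134 bp (88 and 218, up to 1325) for shared vehicle peaks. Under 100 bp were 2956 vehicle-only peaks (70.1%) and 5329 shared ones (32.5%). At 200 bp or wider stood 123 vehicle-only peaks (2.92%) and 4735 shared ones (28.9%). The share of vehicle peaks that were vehicle-only fell step by step with width, from 44.0% of those up to 60 bp, through 18.4% of those from 101 to 150 bp, to 0.894% (19 of 2126) of those over 300 bp. The entacapone list had the same order at a higher level, from 74.1% to 3.82% unmatched. Width thus went with overlap in both directions, and a wide peak also has more bases with which to meet another. The same held inside genes: of 2233 genes with both kinds, the median vehicle-only peak was narrower in 1790 (80.2%), with a median difference of -54.5 bp.

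**Figure D1:**
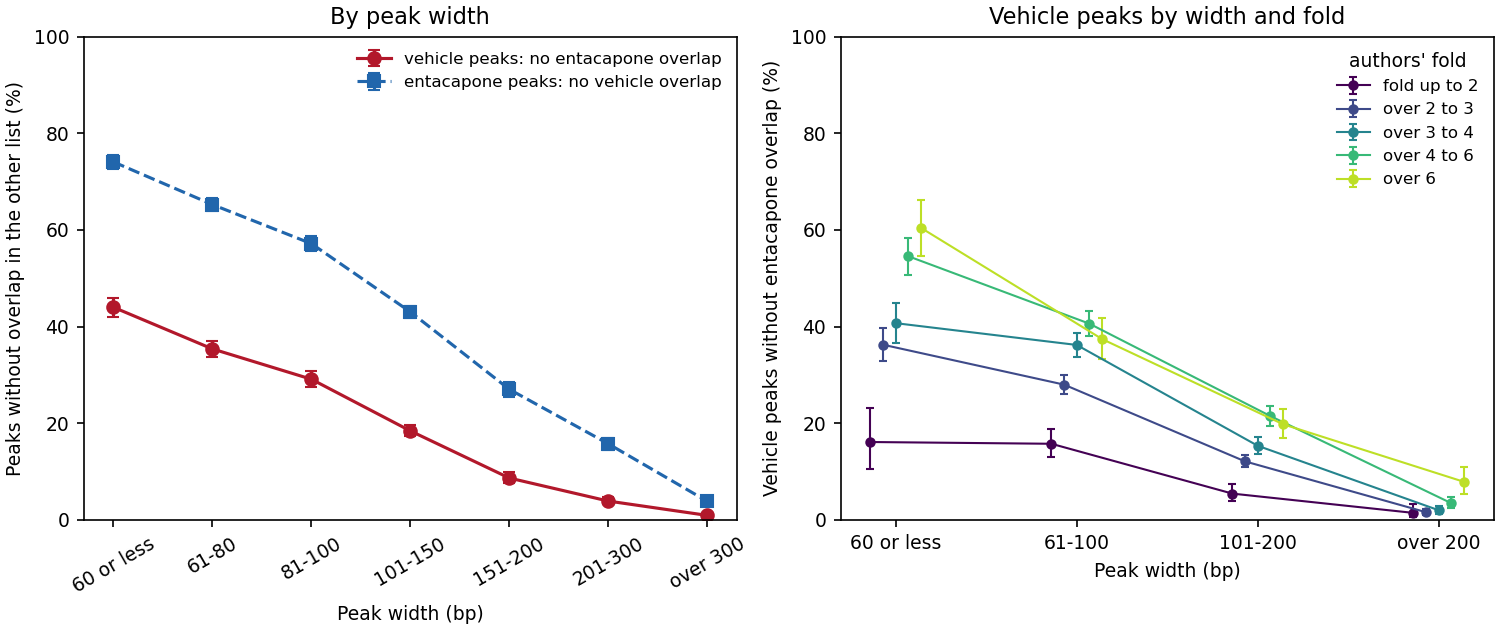
Percentage of peaks without overlap in the other list, by peak width in bp (left: vehicle and entacapone peaks in protein-coding genes, right: vehicle peaks split by the authors' fold), with bars for exact 95% binomial intervals. The vehicle share fell from 44.0% at up to 60 bp to 0.894% over 300 bp, and among the narrowest peaks it was higher at larger fold.

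The vehicle-only peaks did not have the lowest folds of their list. Their median fold was 3.67 (quartiles 2.74 and 4.94), against 3.10 (2.39 and 4.23) for shared peaks. Of vehicle peaks with a fold up to 2, 9% were vehicle-only, and of those over 6, 28.5%. Among peaks up to 60 bp wide the share rose from 16.1% at a fold up to 2 to 60.4% over 6, and among peaks over 200 bp from 1.41% to 7.83%. The unmatched share was thus highest where a narrow peak had a high fold. In the entacapone list the unmatched share was 57.0% at a fold up to 2, then 36.8%, 37.1%, 49.4% and 46.2% in the steps over 2, 3, 4 and 6. The entacapone list differed from the vehicle list in that its peaks of lowest fold had the largest share. When only peaks of fold 4 or more were kept in both lists, the order of the vehicle medians turned, to 4.95 for vehicle-only and 5.49 for shared peaks. A peak was then shared only with an entacapone peak of fold 4 or more, and 60.4% were vehicle-only. With this limit on vehicle peaks alone the order did not turn, with medians of 5.22 and 5.17. Many folds were repeated exactly: 2609 vehicle-only peaks (61.8%) had a fold found in 20 or more vehicle peaks, as did 6740 shared ones (41.1%), a count made after the values were seen.

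Of the 10 largest folds, all but that of Mylk4 belonged to peaks 54 to 73 bp wide, in genes of mixed function. AI987944, a zinc finger gene, had the largest (15.5, 68 bp wide). Traf1, an adaptor of tumour necrosis factor receptors, followed with 13.9 (71 bp), 339 bp from an entacapone peak. The peak of Zfp97, with 13.2, lay 373 bp from the 5′ end of its gene, which had no entacapone peak. Pdlim3, an actin-associated LIM protein of muscle, had a peak of fold 13 whose midpoint lay 53 bp from the 5′ end, and its other vehicle peak was shared. Mylk4, a kinase of the myosin light chain kinase family, had a single vehicle peak of fold 12.7 that was 205 bp wide. The next were Tbc1d14 (12.6), Gucy1a1 (12.2), Xpnpep3 (12.1), Ccser2 (11.6) and 4930444P10Rik (11.5), between 54 and 73 bp wide. Gucy1a1, a subunit of soluble guanylate cyclase, and Ccser2 also had these peaks close to the 5′ end, at 212 bp and 161 bp.

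The widest vehicle-only peaks had entacapone peaks close by. The widest of all, 705 bp in Ccdc61, had one 788 bp away. That in Sgo2a, which encodes a shugoshin that guards sister chromatid cohesion, was 470 bp wide, with an entacapone peak 1165 bp away. Those in Zfp61 (449 bp), Xkr4 (412 bp) and Fam222a (401 bp) lay 463, 290 and 182 bp from one. Of the 123 peaks at least 200 bp wide, 22 (17.9%) were in genes without any entacapone peak, beside 14.4% of all vehicle-only peaks.

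The 4219 peaks fell in 3243 genes, which is 36.8% of the 8804 genes with a vehicle peak. Most of these genes had a single vehicle-only peak (2520, 77.7%), 542 had 2, 127 had 3, and 54 had 4 or more. In 2233 genes (68.9%) another vehicle peak was shared, so that most of the genes had a peak in both libraries. Another 478 (14.7%) shared no peak but had an entacapone peak elsewhere. The other 532 (16.4%), with 606 of the peaks, had no entacapone peak at all. An entacapone-only peak was found in 1948 of the genes (60.1%), and in 55.8% of all 8804 genes with a vehicle peak. Counting all peaks, 1565 of the genes (48.3%) had fewer entacapone than vehicle peaks, 851 had as many and 827 had more. Among all 8804 genes 19.7% had fewer, and the higher share follows in part from choosing genes with an unmatched vehicle peak. Peaks of a gene share a transcript and are not replicates of each other.

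**Figure D2:**
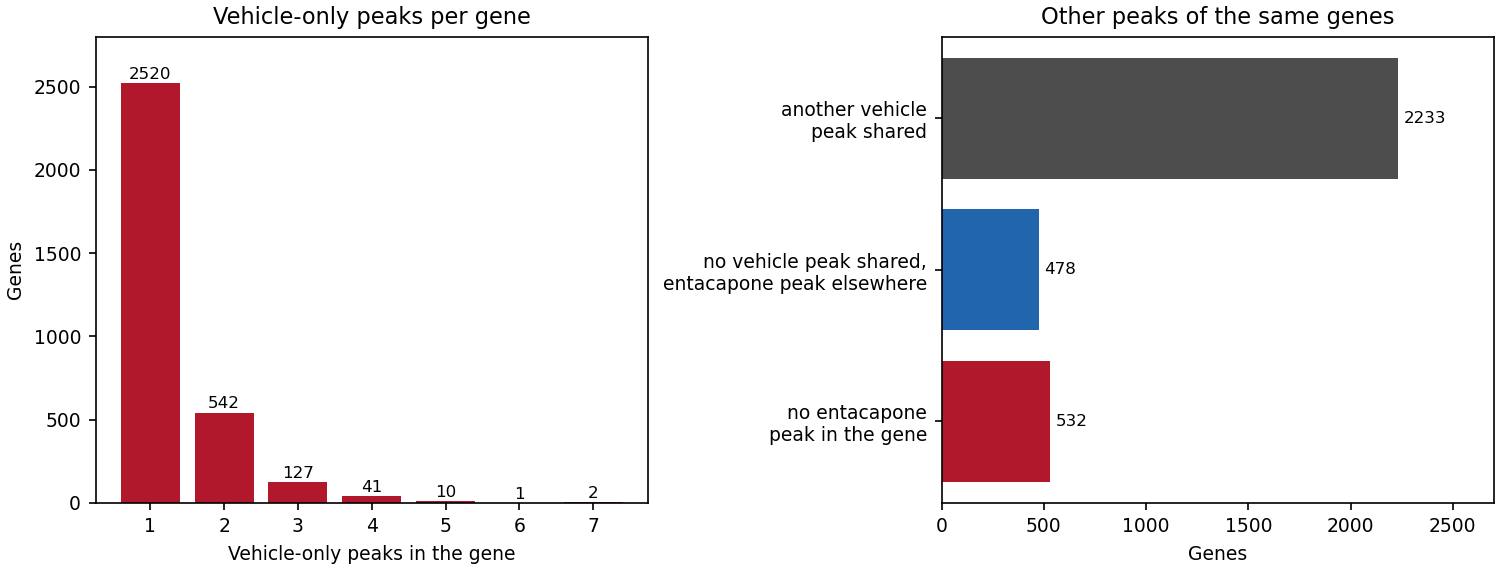
Number of genes by count of vehicle-only peaks (left) and by the other peaks of the same genes (right). A single vehicle-only peak was found in 2520 of 3243 genes, and 2233 also had a shared vehicle peak, while 532 had no entacapone peak.

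The genes with the most vehicle-only peaks were long or had many peaks. Mki67, which encodes the proliferation marker Ki-67, had 7 of its 10 vehicle peaks unmatched and 4 entacapone peaks. The 7 lay between 135695446 and 135707975 on chromosome 7, with widths from 56 to 234 bp and folds of 2.55, 3.92, 4.60, 4.23, 5.90, 5.55 and 5.77. The 3 shared peaks of Mki67 all lay nearer the 3′ end of the gene, with midpoints 258, 3412 and 4905 bp from it, while the nearest vehicle-only peak was at 5726 bp. In Mki67 the unmatched peaks thus formed a block, with 1 entacapone-only peak among them. Slc8a1, the sodium-calcium exchanger, had 7 of 11 unmatched and 7 entacapone peaks. Its unmatched peaks were spread over a span of 365283 bp on chromosome 17, with distances to the nearest entacapone peak from 67 bp to 62061 bp.

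Syne2 and Syne1 encode nesprins, giant proteins that tie the nuclear envelope to the cytoskeleton. Syne2 had 6 of 7 vehicle peaks unmatched, with folds from 2.24 to 4.22. Its 1 shared peak lay 697 bp from the 3′ end, and the 6 others stood 46663 bp or more upstream of that end. Syne1 had 5 of 9 unmatched, with folds from 4.03 to 6.01, and 8 entacapone peaks. Syne1 shared 4 peaks between the lists, where Syne2 shared 1.

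Igsf10, which encodes a secreted immunoglobulin superfamily protein, had 5 of 10 vehicle peaks unmatched. Of these, 4 lay within 59329350 to 59330802 on chromosome 3, with folds of 4.37, 4.39, 5.34 and 4.84, and the nearest entacapone peak was 418 bp beyond the last of them. Tshz2, a zinc finger transcription factor gene, had 5 of 14 unmatched, and Nexn, which encodes the actin-binding protein nexilin, 5 of 11. Pard3, which encodes a scaffold of cell polarity, had 5 of 11 unmatched, Lrrc4c, which encodes a netrin-G ligand, 5 of 10, and Setbp1 5 of 10. In Lrrc4c the unmatched peaks lay between 75 and 264 bp from an entacapone peak, whereas in Pard3 the distance ran from 14 to 17463 bp. The same count per gene therefore held peaks that missed a neighbour narrowly and peaks far from any.

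**Figure D3:**
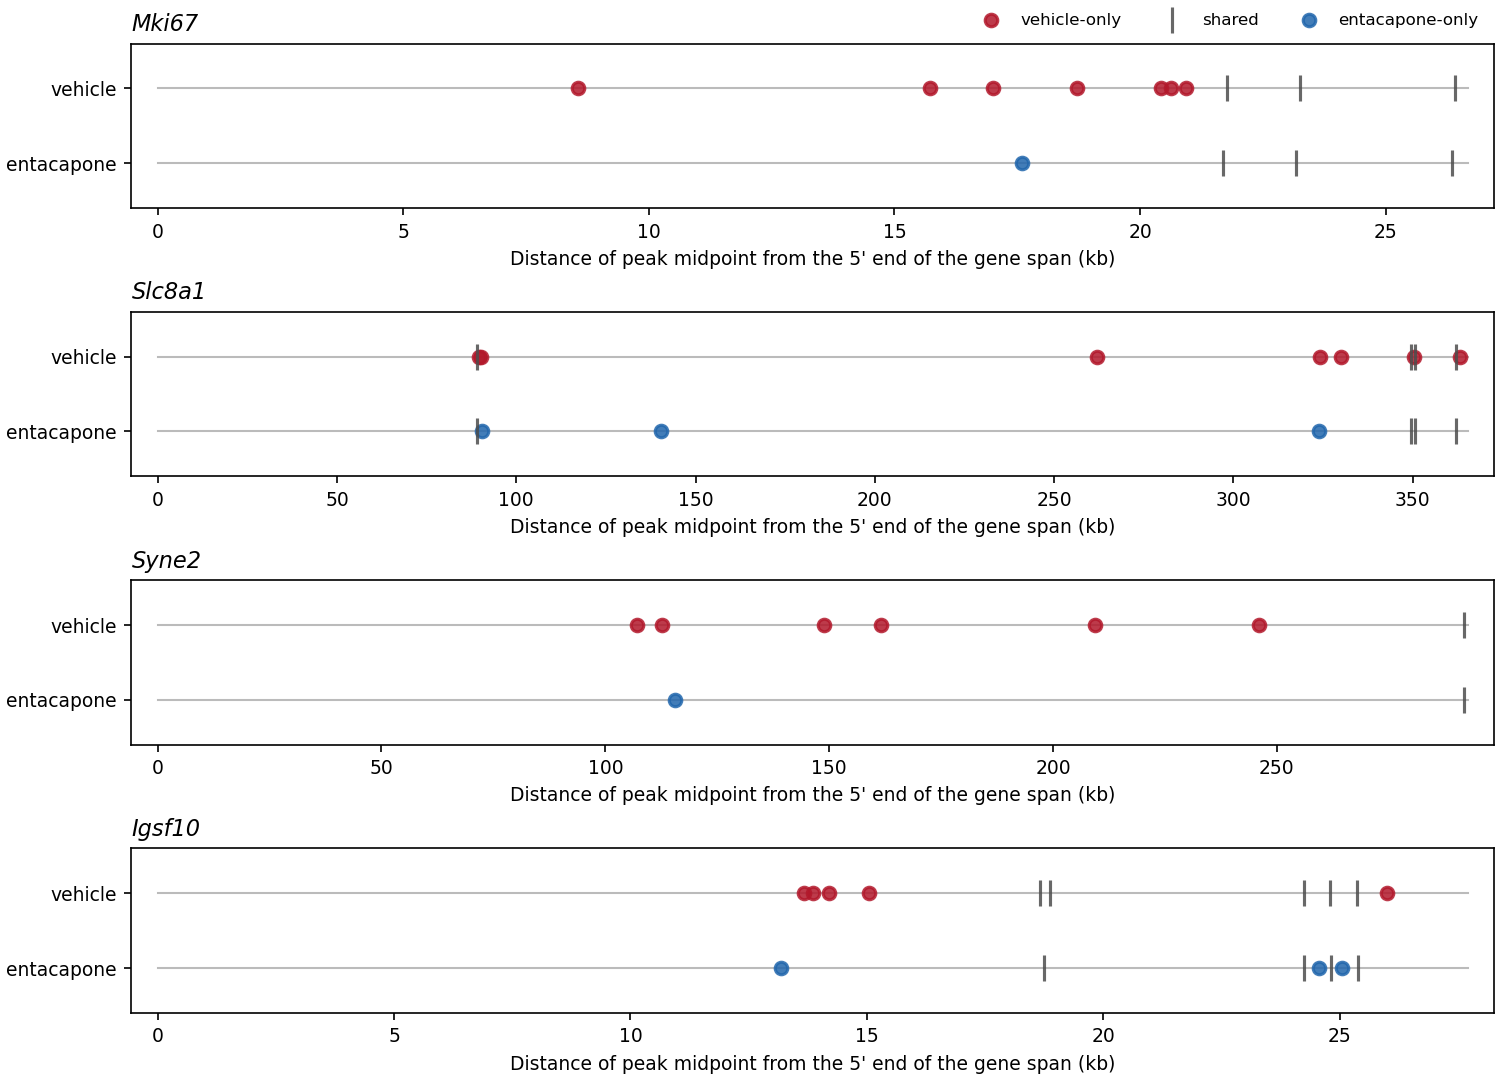
Midpoints of vehicle and entacapone peaks along the spans of Mki67, Slc8a1, Syne2 and Igsf10, in kb from the 5′ end of the gene span, marked as vehicle-only, shared or entacapone-only. Mki67 and Igsf10 show vehicle-only peaks side by side, and in Syne2 the 6 vehicle-only peaks are far apart and the shared one is at the 3′ end.

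The 532 genes without an entacapone peak mostly had 1 vehicle peak (468 genes), 55 had 2 and 8 had 3. Ralgapa1, the catalytic subunit of a Ral GTPase-activating complex, had the most, with 4 (folds 3.12, 3.16, 5.74 and 3.17), all at least 114733 bp from any entacapone peak. Apoa5, an apolipoprotein that controls plasma triglycerides, had 3 peaks within 46270108 to 46271375 on chromosome 9. Their widths were 228, 153 and 289 bp and their folds 3.26, 5.48 and 5.68, so they were wide for the set. Abi1, a subunit of the WAVE actin-nucleation complex, had 3 with folds of 5.20, 3.02 and 5.90. Zfp382, which encodes a zinc finger repressor, had 3 with folds of 4.53, 6.89 and 6.25. Myh4, the fast IIb myosin heavy chain, had 3 of low fold (2.53, 1.68 and 2.49), and Pdlim7, a PDZ-LIM protein, 3 with folds of 3.37, 2.68 and 2.13. Trip10, which encodes a membrane-bending adaptor of actin assembly, had 3 with folds from 1.90 to 3.28, and Dnajb14, an endoplasmic reticulum chaperone partner, 3 with folds from 2.75 to 5.34. Gm46139 had 3 and Zfp97 had 2. In these genes the median peak width (81 bp) was near that of all vehicle-only peaks, and the median fold was 4.06. Their median span was 20960 bp, against 39694 bp for all genes with a vehicle-only peak.

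Vehicle-only peaks took a larger share in long genes. In spans up to 10 kb, 15.1% of vehicle peaks were vehicle-only, and peaks of the same widths in all genes had a share of 18.8%. In spans over 100 kb the share was 25.1%, against 21.5% for the same widths. The number of vehicle peaks in the gene made little difference, with shares from 19.4% to 23.6%. Over the autosomes and X the share ran from 17.4% on chromosome 19 to 24.8% on X.

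Strand was known for the genes of 3310 vehicle-only and 12960 shared peaks. Both sets were densest in the last 10% of the gene span, which held 27.6% of the vehicle-only and 39.1% of the shared peaks. The first 10% held 16.8% of the vehicle-only and 10.4% of the shared peaks. Across 10 equal parts of the span from 5′ to 3′ the vehicle-only share of vehicle peaks went from 29.3% to 15.3%, where the peak widths alone gave 25.8% and 19.0%. Entacapone-only peaks were placed much alike, with 16.8% in the first 10% and 31.0% in the last. Unmatched peaks of either list were thus placed more towards the 5′ end than shared vehicle peaks. Within 1 kb of the start lay 12.5% of the vehicle-only and 8.89% of the shared peaks, and within 1 kb of the 3′ end 14.2% and 18.7%. Without regard to strand, 26.6% of vehicle-only and 27.0% of shared peaks lay within 1 kb of the nearer end. The order of these close values was not stable. It turned with fold 4 or more in both lists (24.7% and 22.8%), with vehicle peaks of fold 2 or more (26.3% and 26.1%), with peaks 100 bp or wider (25.7% and 24.8%), with an entacapone peak within 100 bp counted as shared (27.0% and 26.9%) and within 0.5 kb (18.6% and 15.7%). Exons, introns and UTRs were not assigned, since no exon annotation was used here.

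**Figure D4:**
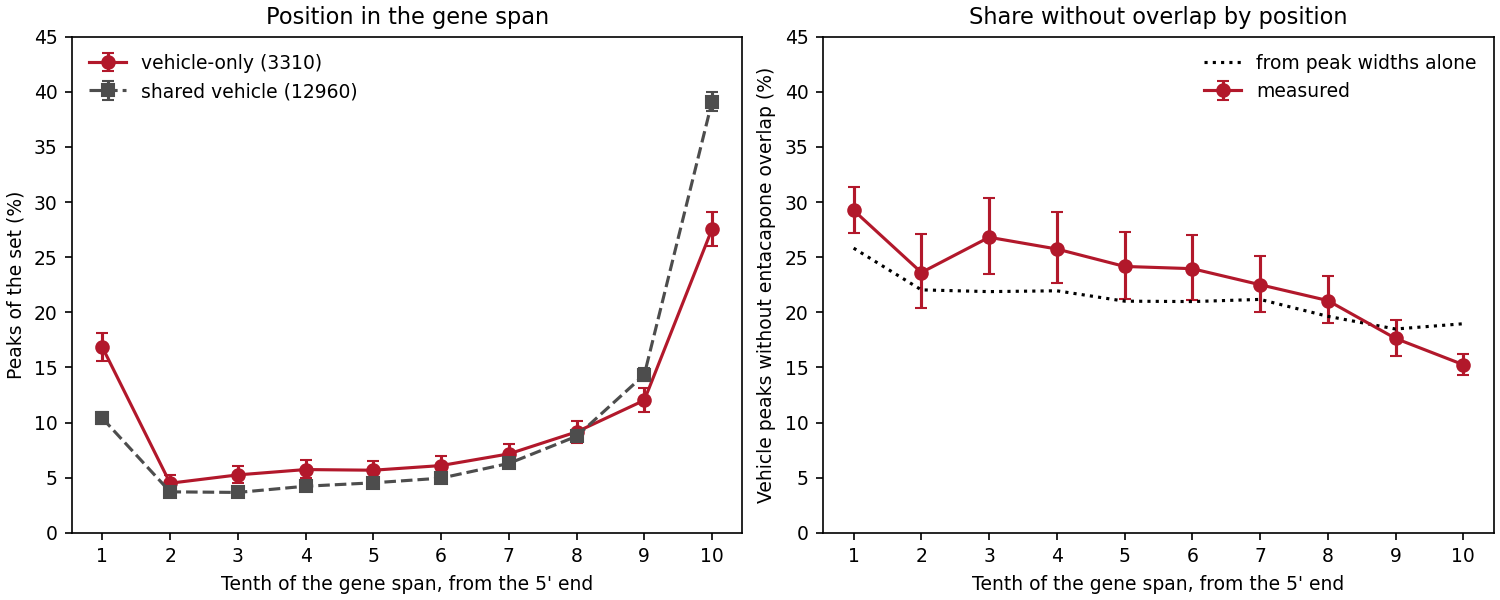
Share of the 3310 vehicle-only and 12960 shared vehicle peaks in each of 10 equal parts of the gene span from the 5′ end (left), and percentage of vehicle peaks in each of these parts that were vehicle-only, beside the percentage given by peak widths alone (right), with exact 95% binomial intervals. The measured line runs from 29.3% in the first to 15.3% in the last.

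Many vehicle-only peaks were close to an entacapone peak. The median distance was 2743 bp (quartiles 477 and 13799). An entacapone peak lay within 500 bp of 1087 (25.8%), and over 10 kb away from 1298 (30.8%). At the edge of the overlap rule, 24 vehicle-only peaks had an entacapone peak within 10 bp and a median width of 76.5 bp and fold of 3.89. The 53 shared peaks that overlapped by 10 bp or fewer had a median width of 82 bp and fold of 3.10. Few peaks were therefore within 10 bp of the limit of the rule, and 92.4% of shared peaks were covered over at least 50% of their width. A rule that asked for such cover would give 5459 vehicle-only peaks (26.5%). Among genes with an entacapone peak, the most distant vehicle-only peaks were in Auts2 (1066979 bp away), Naaladl2 (981138 and 952559 bp) and Gpc6 (932111 and 528087 bp), all in very long spans.

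The genes were then described by function with 45 lists, 32 of pathways and cell type markers and 13 of symbol families. Of the 35 lists with at least 20 vehicle peaks, 27 had a vehicle-only share whose exact 95% interval held the 20.5% of all vehicle peaks. The intervals of 4 lists lay above it and those of 4 below. The intervals cover counting error only, and the lists differ in the widths of their peaks, so the share that the same widths had in all genes is given beside each list's share as the widths share.

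**Figure D5:**
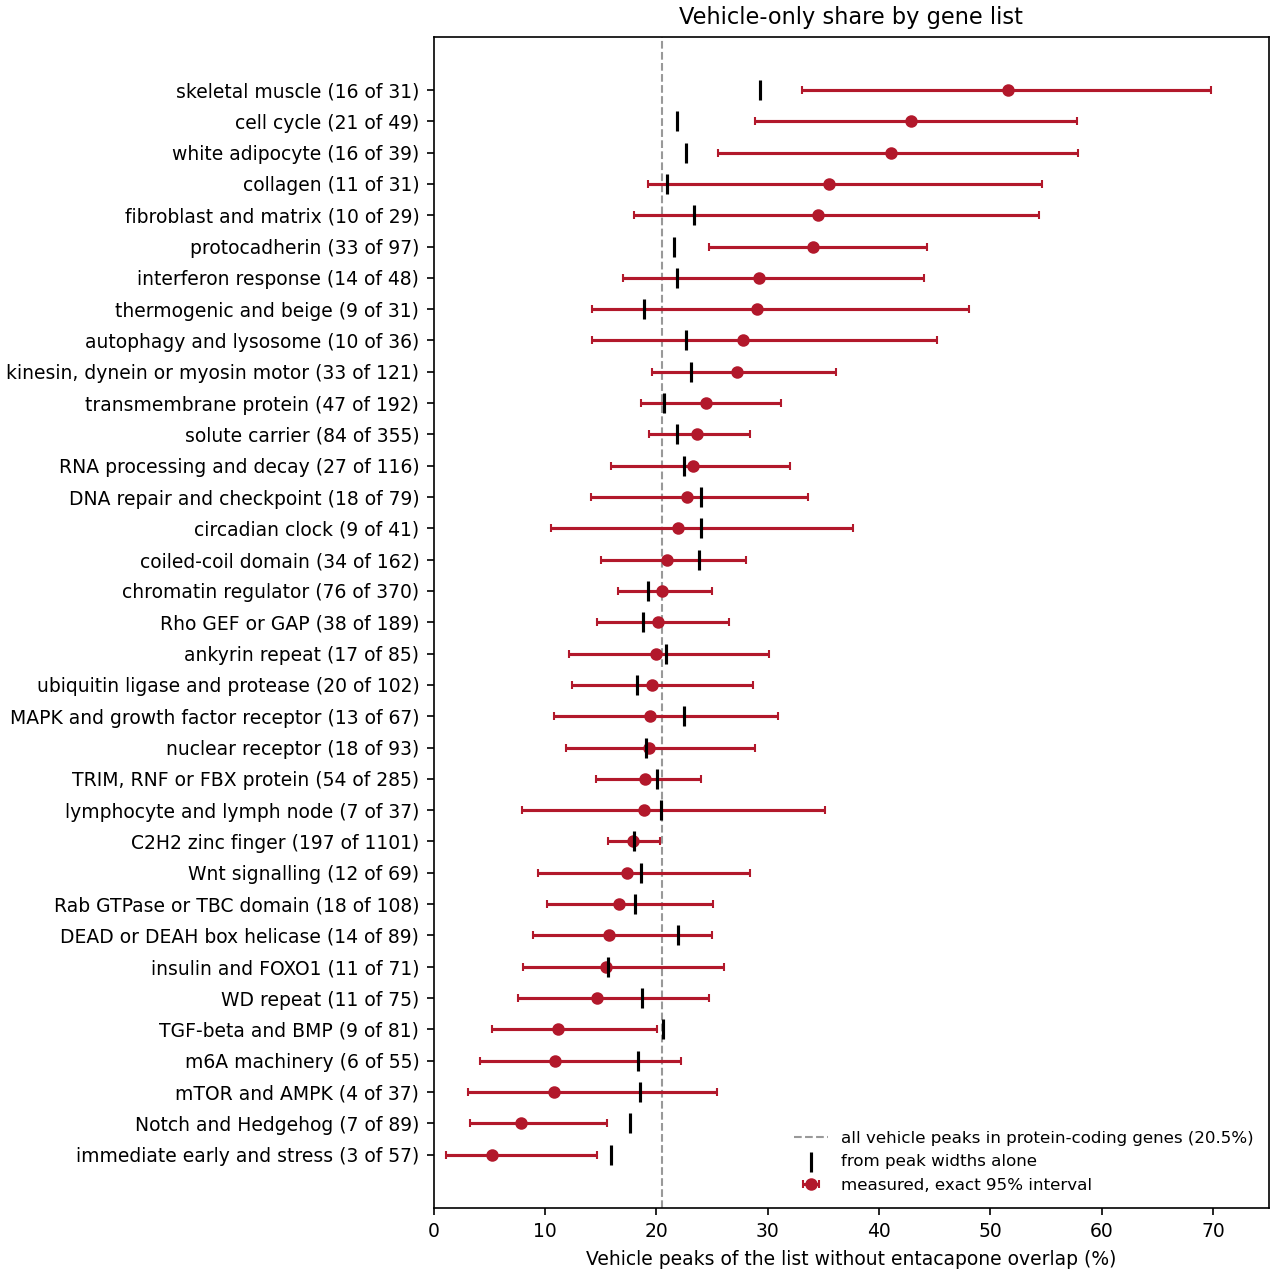
Percentage of vehicle peaks without entacapone overlap in each gene list with 20 or more vehicle peaks (points, with exact 95% binomial intervals), beside the share given by peak widths alone (black ticks) and the share of all vehicle peaks (dashed line, 20.5%). Skeletal muscle, cell cycle and white adipocyte genes are at the top, and immediate early genes at 5.26% are at the bottom.

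White adipocyte genes had 16 of 39 vehicle peaks unmatched (41.0%, interval 25.6 to 57.9), where their widths gave 22.7%. They were spread over 9 of 13 genes with a vehicle peak, and all 9 still had an entacapone peak. Npr3, the clearance receptor for natriuretic peptides, had 4 of 5 unmatched, with folds of 3.26, 3.66, 4.18 and 3.06 and an entacapone peak no nearer than 7645 bp. Adipor2, a receptor for adiponectin, had 2 of 3 unmatched, with folds of 7.53 and 9.78. Zfp423 and Ebf1, transcription factors of the adipocyte lineage, had 2 of 3 and 2 of 6. Without Npr3 the share of the list was 35.3% (12 of 34), and its interval of 19.7 to 53.5 then held the background share. The entacapone list held 59 peaks in these genes, 36 of them without vehicle overlap. Of all entacapone peaks in protein-coding genes 43% had none, so unmatched entacapone peaks were common in general.

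Thermogenic and beige genes had 9 of 31 unmatched (29%, interval 14.2 to 48.0; widths 18.9%), an interval that held the background share. Ppargc1a, the coactivator that drives mitochondrial biogenesis, had both of its vehicle peaks unmatched (folds 4.94 and 4.90), and its 6 entacapone peaks all lay elsewhere. Esrrg, a nuclear receptor that works with it, had 2 vehicle peaks of fold 6.76 and 3.67 with midpoints 3709 and 3343 bp from its 3′ end, and no entacapone peak. Bmp7, Gatm and Esrra also had none, while Prdm16, the brown-fat transcription regulator, had 2 of 14 unmatched and 16 entacapone peaks. Thus 4 of the 6 listed genes with a vehicle-only peak had no entacapone peak, beside 16.4% of all genes with a vehicle-only peak. In lipolysis 5 of 19 peaks were unmatched (26.3%, interval 9.15 to 51.2; widths 23.2%), 3 of them in Prkar2b, a regulatory subunit of protein kinase A, without which 2 of 15 were. In fatty acid oxidation 0 of 13 were (interval up to 24.7; widths 18.6%). In lipid synthesis 3 of 10 were (interval 6.67 to 65.2; widths 18%), in Acacb, Acaca and Srebf2. These intervals also held the background share.

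Insulin and FOXO1 genes had 11 of 71 unmatched (15.5%), as their widths gave (15.6%). Irs1, the docking protein of the insulin receptor, had 2 of 7 unmatched, at 4 bp and 380 bp from an entacapone peak, and 10 entacapone peaks. Foxo1 had 1 of 5 unmatched, of fold 1.91 and 15 bp from an entacapone peak, and 6 entacapone peaks. Pdpk1, a kinase of the pathway, had 2 of 4. No gene of the list that had a vehicle-only peak was without an entacapone peak. In the m6A machinery 6 of 55 peaks were unmatched (10.9%, interval 4.11 to 22.2; widths 18.3%): 3 of 11 in Zc3h13, and 1 each in Virma, Igf2bp2 and Ythdc2. Zc3h13 and Virma are parts of the methyltransferase complex, and the other pair bind modified RNA.

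Cell cycle genes had 21 of 49 unmatched (42.9%, interval 28.8 to 57.8), where widths gave 21.8%, in 14 of 22 genes. Mki67 held 7 of these, and without it the share was 35.9% (interval 21.2 to 52.8), no longer clear of the widths share. The cyclin E genes Ccne1 and Ccne2, the mitotic kinase Aurka, the inhibitor Cdkn1a and Rb1 had no entacapone peak. These were 5 of the 14 genes, and of all genes with a vehicle-only peak 16.4% had none. Aurka had 2 vehicle peaks, with folds of 5.34 and 4.53. In the entacapone list 26 of 52 peaks in these genes had no vehicle overlap, beside 43% of all entacapone peaks in protein-coding genes. DNA repair genes, by comparison, had 18 of 79 unmatched (22.8%; widths 24.0%), among them 3 of 4 in Atm, the checkpoint kinase.

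Interferon response genes had 14 of 48 unmatched (29.2%, interval 17.0 to 44.1, which held 20.5%; widths 21.9%). Ifit1, an antiviral RNA-binding protein, had 3 of 7 unmatched, with folds of 4.49, 5.16 and 6.35. The kinase gene Eif2ak2 had 3 of 7 and Oas2, an oligoadenylate synthetase, 2 of 3. Ifit1 and Oas2 had no entacapone-only peak, and Irf9, which encodes a subunit of the interferon-activated transcription factor, had no entacapone peak. Of all genes with a vehicle-only peak 60.1% had an entacapone-only peak, and 16.4% had no entacapone peak. In the interferon list 10 of 43 entacapone peaks had no vehicle overlap, beside 43% of all entacapone peaks in protein-coding genes.

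Skeletal muscle markers had 16 of 31 unmatched (51.6%, interval 33.1 to 69.8). Their peaks were narrow, with a median width of 79 bp, and widths alone gave 29.3%. Besides Myh4, Pdlim3 and Mylk4, the unmatched peaks included 4 of 5 in Myh7, the slow myosin heavy chain, with folds of 3.43, 3.12, 4.28 and 6.55. Myh2 had 2 of 5 and Mybpc2 2 of 3. Without Myh7 the share was 46.2% (interval 26.6 to 66.6), which held the widths share. Of the 20 marker genes 14 had a vehicle peak and 15 an entacapone peak. Of their 49 entacapone peaks 33 had no vehicle overlap, beside 43% of all entacapone peaks in protein-coding genes. Muscle transcripts thus had peaks in both libraries, without overlap for 16 of 31 vehicle peaks and 33 of 49 entacapone peaks. In bulk tissue fewer cells of a type and less RNA per cell cannot be told apart, and the part that muscle RNA played in these peaks was not tested.

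Protocadherins, cell adhesion proteins, had 33 of 97 unmatched (34.0%, interval 24.7 to 44.3; widths 21.6%). Pcdh17 had 4 of 5, with folds of 7.53, 5.49, 6.55 and 7.59. Many genes of the family lie in clusters, where the gene given to a peak is uncertain. Collagens had 11 of 31 (35.5%; widths 20.9%), led by Col4a2, Col6a3 and Col5a1 with 2 each, and motor proteins 33 of 121 (27.3%; widths 23.1%), with 4 each in Kif1b and Myo5a. The intervals of collagens and motors held the background share.

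Immediate early and stress genes were at the low end, with 3 of 57 unmatched (5.26%, interval 1.10 to 14.6), where widths gave 15.9%. The 3 were in Atf3, Hspa1a and Hspa1b, the last pair near-identical heat shock genes whose reads cannot be separated with certainty. Notch and Hedgehog genes had 7 of 89 (7.87%, interval 3.22 to 15.5; widths 17.6%), with 2 of 4 in Gli3, and TGF-beta and BMP genes 9 of 81 (11.1%, interval 5.21 to 20; widths 20.6%), with 2 of 6 in Smad3. C2H2 zinc finger genes had 197 of 1101 (17.9%, interval 15.7 to 20.3), which their widths gave as well (18%). Chromatin regulators were at the background, with 76 of 370 (20.5%; widths 19.2%), and solute carriers close to it, with 84 of 355 (23.7%; widths 21.8%).

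Apoa5 among the genes without an entacapone peak led to a further grouping, made after the values were seen: 110 genes of coagulation factors, apolipoproteins and other plasma proteins, many of them known as products of the liver. Of these, 27 had a vehicle peak and 17 a vehicle-only peak, and in 14 of the 17 there was no entacapone peak. Among all genes with a vehicle peak 36.8% had a vehicle-only peak, and 16.4% of the genes with a vehicle-only peak had no entacapone peak. The 14 included the fibrinogen chains Fga and Fgb, the clotting factor F10, tissue factor F3, the anticoagulants Proc and Pros1, the apolipoprotein Apof, Hrg, Azgp1, Fgl1, Masp2 and Saa4. Together 27 of 48 vehicle peaks were unmatched (56.2%), where widths gave 19.9%, and the unmatched peaks were wide for the set, with a median of 133 bp. F10 had folds of 3.12 and 8.5, Fga 2.78 and 2.66, and Apof 3.39 and 4.78. Masp1 and Serpina1c had 2 of 4 unmatched each, and the Serpina genes have near-identical copies. The entacapone list held 60 peaks in the 110 genes, and 13 genes had a peak only there, among them Apoa1, Hp, Hpx, Orm1 and Trf. The share of such genes over all genes is not given here. Without vehicle overlap were 20 of 34 entacapone peaks in coagulation genes, 5 of 7 in apolipoproteins and 14 of 19 in the others. Of all entacapone peaks in protein-coding genes 43% had none. Neither list had a peak in Alb. The groups were picked on these values, so the counts are a description, and the part that RNA of another tissue played was not tested.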

How the data were processed

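Per the labels' protocols, poly(A) RNA of white adipose tissue was fragmented, part was immunoprecipitated with an m6A antibody, and TruSeq libraries were sequenced. TopHat2 2.1.1 and MACS2 with mm10 were used, per the submitters' processing notes; no source used here gives the MACS2 version or the peak threshold. The deposited count of reads per gene of each input library is raw and served only for library totals. Each IP file is a deposited list of positions with a number that has no header, taken as the authors' fold (a ratio of IP over input); it describes peaks within a list only. Coordinates are those of the lists, whose starts were read as counting from 0 for sequence and overlap; printed sequence positions count from 1.

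Lists were intersected with bedtools 2.31.1 (1 bp or more), in Python 3.11.15 with pandas 2.3.3, numpy 2.4.6 and scipy 1.17.1; the counting was checked on simulated peaks. A peak was given to the protein-coding RefSeq span (GRCm38.p6, 21887 genes) holding its midpoint, the shortest where several did (148 vehicle-only peaks). Peaks carry no strand, so overlapping genes on opposite strands cannot be separated. Strand of 17492 genes came from the RefSeq promoter table. Intervals are exact Clopper-Pearson or order-statistic 95% intervals and cover counting error only. The share from widths is the mean vehicle-only share of all vehicle peaks in the same 20 bp width step. Of 871 listed genes 868 were matched, 1 by an older symbol.

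Named were the 10 genes with the most vehicle-only peaks, the 10 with the most among those without an entacapone peak, the 10 largest folds, the 5 widest and 5 most distant peaks, and up to 4 members per list; other names belong to small counts. The members, lists and the printed sites were chosen with earlier results of these data known. With 1 library per group no test was made. The planned comparison of input levels was not run, because the Ensembl identifiers of the counts could not be paired with gene names from the tables used.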

Additional observations from a re-analysis of the deposited data

How the results depend on the processing

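Of 67 alternative values, 34 stayed within the margin and 33 moved. With at least 50% of the vehicle peak covered, the vehicle-only share was 26.5%, its median width 89 bp and the shared median fold 3.07. With an entacapone peak within 100 bp counted as shared, the share was 19.5%, and 27.0% (shared 26.9%) lay within 1 kb of an end. With vehicle peaks of fold 2 or more, the share was 21.6%, the median fold 3.75 (shared 3.26), and 26.3% (shared 26.1%) lay within 1 kb. With vehicle peaks of fold 4 or more, there were 1817 vehicle-only peaks (27.8%) and 280 genes without an entacapone peak, the median width was 77 bp, the median fold 5.22 (shared 5.17), and 23.1% (shared 24.3%) lay within 1 kb. With fold 4 or more in both lists, the share was 60.4%, the genes 1418, the median width 102 bp, the median fold 4.95 (shared 5.49), and 24.7% (shared 22.8%) lay within 1 kb; this limit removes entacapone peaks, so more vehicle peaks are unmatched. With vehicle peaks 100 bp or wider, an alternative chosen after seeing the data, 1263 peaks (10.3%) and 186 genes remained, with a median width of 126 bp (shared 180), and 25.7% (shared 24.8%) lay within 1 kb. Within 0.5 kb of an end lay 18.6% (shared 15.7%), and within 2 kb 37.4% (shared 44.2%).

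No paired analysis was possible because each group holds 1 library, and with a single library no replicate was left out. The alternatives for input levels (DESeq2 size factors or total counts for scaling, and no filter on low counts) were not run, since the count identifiers were not paired with gene names. The entacapone input held 1.35 times the counts of the vehicle input and its peak list was longer; how far depth, the peak threshold or the tissue taken set the unmatched peaks was not tested.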
